A study of Rattus norvegicus with 32 samples.

Results

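The comparison described here asks how the liver's response at the end of the day 1 ozone exposure relates to its response after a recovery period. It is an interaction: ozone minus air at 18 h after the end of the second daily exposure, minus ozone minus air at the end of the exposure on day 1. A value above 0 means that the ozone effect was more positive at 18 h than on day 1, and a value below 0 that it was more negative. The members are the 22 arrays of 4 groups, of 32 arrays in all, chosen by the exposure and harvest time in their titles. All the groups are livers of male Wistar Kyoto rats, 10 weeks old and weighing 250 to 300 g. On day 1 the rats breathed filtered air (6 arrays) or ozone at 1 ppm (6 arrays) for 6 h and were sampled as the exposure stopped. The recovery groups breathed air (5 arrays) or ozone at 1 ppm (5 arrays) for 6 h on each of 2 days and were sampled 18 h later. The recovery animals therefore had 1 more exposure than the day 1 animals as well as the rest. A second exposure, 18 h of recovery and any difference in the hour of harvest cannot be told apart in this contrast. The remaining 10 arrays (5 air, 5 ozone), taken at the end of day 2, are used only as a reading in between. Nothing in the labels ties each array to its own animal, and the p-values therefore measure the spread between these samples only.

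Ozone is an oxidant gas that reacts with the lining of the airways and is not thought to reach the liver as such. Inhaled ozone is known as a stressor that raises circulating stress hormones, and the liver is a main target of those hormones. In liver, glucocorticoids and adrenaline drive amino acid breakdown and glucose production, cytokines drive the acute phase response, and sterol and bile acid synthesis are switched by feeding and fasting. Many of these transcripts turn over within hours and follow the time of day, and each ozone group here has an air group taken at the same harvest time. That match does not account for an ozone effect that itself changes with the hour.

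The 22 arrays were of similar brightness, with median intensities of 146.6 to 159.9 units. Probes for nonspecific binding read 85.35 to 92.03 units on 20 of them, but 54.28 on day 1 air replicate 2 and 66.07 on day 1 ozone replicate 3. Levels are given as log2(intensity + 16), on which 92.03 units is 6.76. The tissue label was borne out: the mean over 11 hepatocyte markers lay between 12.83 and 13.00 in every array, and that over 10 pancreas and adipose markers between 7.61 and 7.77. By the correlation of its deviation from the overall mean with the other arrays of each group, 4 of the 22 lay closest to a group other than their own. Recovery air replicate 1 correlated at 0.65 with the recovery ozone arrays and at 0.25 with the other recovery air arrays. Recovery air replicate 3 also lay nearer to recovery ozone, recovery air replicate 5 nearer to day 1 air, and day 1 air replicate 5 nearer to day 2 air. All arrays were kept as labelled. The main counts, and several genes whose 18 h groups turn on recovery air replicate 1, are also given with arrays left out. Leaving out all 4 keeps only replicates 2 and 4 of recovery air.

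Ozone's effect on the liver differed between the end of day 1 and the recovery time for 2776 of 19062 single-gene probe sets (14.6%; limma with Benjamini-Hochberg adjustment, threshold 0.05). The ozone effect was more positive at 18 h for 1641 of them (8.61%) and more negative for 1135 (5.95%). They belong to 2417 genes. The median size was 0.33 on the log2 scale, and 64 interactions above 0 and 69 below 0 reached at least 1. On day 1 alone ozone and air differed for 4316 probe sets (22.6%), 1932 higher (10.1%) and 2384 lower (12.5%) after ozone. At 18 h the difference passed for 120 probe sets (0.63%), 78 higher (0.409%) and 42 lower (0.22%), and 1821 had an unadjusted p under 0.05. The interaction split depended on scaling: it was 1620 above 0 and 1491 below under quantile normalization, and 1563 and 1233 with equal array medians. Under quantile normalization the 18 h split was even, at 82 higher and 83 lower. Without the 4 arrays that lay closer to another group the interaction count was 1970, and 1862 of those were among the 2776. That fit held only replicates 2 and 4 of recovery air.

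The word reversal covers a small share of this contrast. Of the 2776 interactions, 2364 (85.2%) passed the day 1 test and not the 18 h test: the day 1 difference was no longer resolved after recovery. In 30 (1.08%) both effects passed with opposite signs, in 58 (2.09%) the 18 h effect alone passed, and in 324 (11.7%) neither effect passed by itself. No interaction had both effects past the threshold with the same sign. Of 21 genes named below for a difference past the threshold at 18 h, 10 kept that call without any single array (Tmcc3, Lpar6, Lgals9, Fmo1, Eprs1, Ebp, Cry1, Apcs, Ifi27 and Akr1b7) and 11 lost it without at least 1 recovery array (Mfsd2a, Scd, Prelid2, Sox4, Usp3, Klf9, Dnajc3, Stab2, Irf7, Enpp2 and Hjv). The count of 30 rests on few arrays: it was 150 without recovery air replicate 1 and 5 to 8 without recovery air replicate 2, 3 or 4 or recovery ozone replicate 3 or 4, and 13 without recovery ozone replicate 5. The 18 h count of 120 moved in the same way, to 409 without recovery air replicate 1 and to 24 without recovery air replicate 3 or 4; it was 49 and 57 without recovery air replicates 2 and 5, and 36, 32 and 51 without recovery ozone replicates 3, 4 and 5. The interaction count itself stayed between 2375 and 2855 when any single array was left out.

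**Figure D1:**
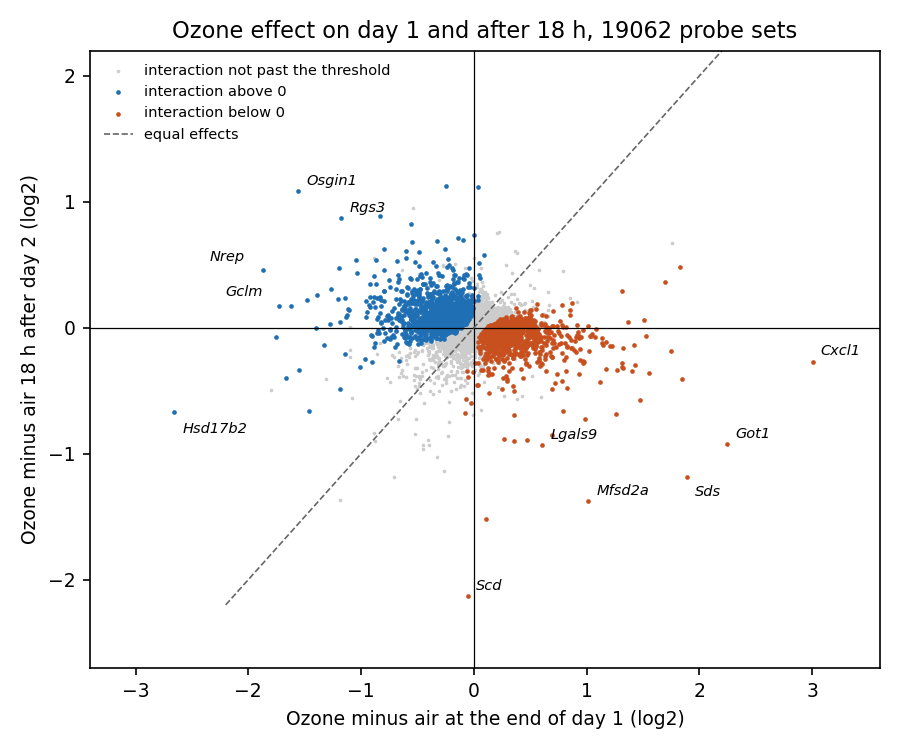
Each point is 1 of 19062 probe sets, with ozone minus air at the end of day 1 (horizontal, log2) against ozone minus air 18 h after day 2 (vertical, log2). Grey points did not pass the interaction test, blue points (1641) had an interaction above 0, orange points (1135) below 0, and the dashed line marks equal effects. Most coloured points lie along the horizontal axis, with a day 1 effect and an 18 h effect near 0, and few genes such as Mfsd2a, Sds and Osgin1 lie well into the opposite quadrants.

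The day 1 and 18 h effects share no array, so the sign at 18 h of a probe set called on day 1 is not fixed by that choice. Of the 4316 probe sets called on day 1, 2532 (58.7%) had the opposite sign at 18 h, against 47.4% of all 19062. Counted in the day 1 direction, their median effect was 0.22 on day 1, the value that chose them, 0.06 at the end of day 2 and -0.01 at 18 h. The 75 probe sets with a day 1 effect of at least 1 had a median of 1.27 on day 1, 0.47 on day 2 and -0.14 at 18 h (quartiles -0.31 and 0.07). All 75 kept the day 1 sign at the end of day 2, and 53 (70.7%) had the opposite sign at 18 h. Transcripts that ozone had raised by at least 1 were below air at 18 h in 32 of 39 cases, and those it had lowered were above air in 21 of 36. The day 2 groups were mixed: 3 of the 5 air arrays (replicates 1 and 2 with day 1 air, replicate 5 with day 2 ozone) and 1 of the 5 ozone arrays (replicate 5, with recovery ozone) lay closest to another group. Without replicate 5 of both day 2 groups, the day 2 median was 0.11 for the 4316 and 0.79 for the 75, with 74 of the 75 of the same sign. Without all 4 of those arrays, which leaves 2 air arrays, the medians were 0.10 and 0.77. Sign shares are descriptions, since probe sets measured on the same arrays vary together.

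**Figure D2:**
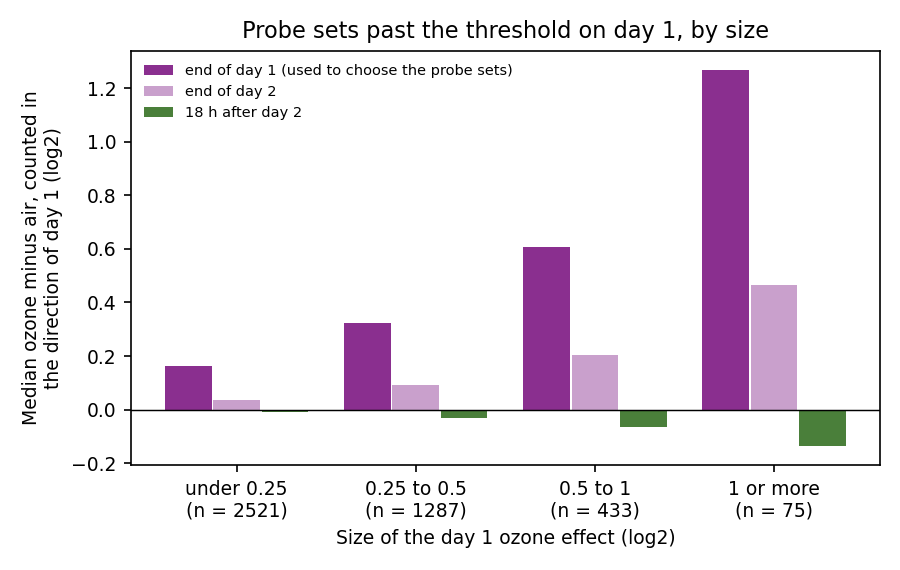
Median ozone minus air (log2), counted in the direction of day 1, for the 4316 probe sets called on day 1, binned by the size of their day 1 effect. Dark bars are day 1, which chose the probe sets, light bars the end of day 2, and green bars 18 h after day 2. In the bin of 1 or more the medians are 1.27, 0.47 and -0.14, and the green bars lie at or below 0 in every bin.

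The interaction can be split into the change with time after ozone and the change with time after air. Among the 1641 probe sets with an interaction above 0, the median change from day 1 to recovery was 0.32 in ozone livers and -0.01 in air livers. Among the 1135 below 0 it was -0.31 in ozone livers and 0.03 in air livers. Of all 2776, 2582 also passed for ozone at 18 h against ozone on day 1 and 63 for air at 18 h against air on day 1. Over all probe sets 28.2% and 1.43% passed those tests. These counts use the same arrays as the interaction and describe its parts. Air and ozone arrays did not overlap on day 1 for 12.5% of all probe sets and for 63.7% of the 2776. At 18 h those shares were 2.23% and 7.46%. A gap between groups, where given below for a gene, is therefore a description of its arrays and adds no test.

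The largest interaction below 0 was that of Cxcl1, a chemokine that attracts neutrophils. Its level on day 1 ran from 7.09 to 8.50 (median 7.34) after air and from 9.27 to 11.13 (median 10.76) after ozone, with no overlap. At 18 h the air arrays read 7.40, 11.84, 7.60, 7.41 and 7.54, and the ozone arrays 7.43, 10.15, 7.61, 7.92 and 7.33. Replicate 2 was the high array in both recovery groups, and the other 8 arrays lay in the range of day 1 air. Ozone minus air was 3.00 ± 0.52 on day 1 and -0.27 ± 0.57 at 18 h, an interaction of -3.27 ± 0.78 (SE; adjusted p 0.00349), between -3.79 and -2.40 when any single array was left out.

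Enzymes of amino acid breakdown followed. Got1, the cytosolic aspartate aminotransferase, ran from 9.51 to 10.89 (median 10.32) after air on day 1 and from 12.45 to 12.60 (median 12.52) after ozone. Its recovery air arrays read 9.84, 10.59, 10.44, 10.41 and 10.70, and the recovery ozone arrays 9.63, 9.45, 9.62, 9.28 and 9.36. All 5 recovery ozone arrays were thus below all 5 recovery air arrays, although the 18 h difference of -0.93 ± 0.35 did not pass the test (adjusted p 0.286). The interaction was -3.17 ± 0.47 (adjusted p 4.08e-05). Sds, serine dehydratase, which turns serine into pyruvate, had an effect of 1.89 ± 0.35 on day 1 and -1.18 ± 0.38 at 18 h (adjusted p 0.165), an interaction of -3.08 ± 0.52 (adjusted p 0.000145). Its groups overlapped at neither time.

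Other transcripts in this group were raised on day 1 and had an effect below 0 at 18 h that did not pass the test. Cdkn1a, the cell-cycle inhibitor p21, was 1.75 ± 0.18 higher on day 1 and -0.19 ± 0.20 at 18 h, and Gadd45b, a growth-arrest gene, 1.26 ± 0.31 and -0.68 ± 0.34. Por, the reductase that supplies electrons to cytochromes P450, had effects of 1.40 and -0.34. Edem1 and Ube2g2, both of the pathway that removes misfolded proteins from the endoplasmic reticulum, had 1.43 and 1.32 on day 1 and -0.29 and -0.32 at 18 h. Slc25a22, a mitochondrial glutamate carrier, had 0.99 and -0.73, the largest 18 h size of these 6 genes (adjusted p 0.0826). This 18 h effect was -0.87 and passed without recovery air replicate 1 (adjusted p 0.0166).

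Scd and Zfp354a were different. Scd, the desaturase that makes oleate, showed -0.05 ± 0.41 on day 1 and -2.13 ± 0.45 at 18 h (adjusted p 0.0218) with an interaction of -2.08 ± 0.61 (adjusted p 0.0174). The recovery ozone arrays read 7.51, 7.77, 7.77, 7.69 and 7.64, and the recovery air arrays 7.63, 10.30, 9.89, 10.12 and 11.10. Recovery air replicate 1 alone lay among the ozone arrays, which makes the groups overlap. Without it the 18 h effect was -2.68 (adjusted p 0.0002) and the interaction -2.62. Without recovery air replicate 2 the 18 h effect was -2.01 and did not pass (adjusted p 0.0638). The difference was -2.27 at the end of day 2. Zfp354a, a zinc-finger protein gene, had 0.11 and -1.52, neither past the threshold, and its interaction (-1.62 ± 0.55, adjusted p 0.0452) lost the call in 17 of 35 alternative analyses.

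On the other side, the largest interaction above 0 was that of Osgin1, an oxidative-stress-induced growth inhibitor. After air on day 1 it ran from 9.55 to 11.21 (median 10.40) and after ozone from 8.54 to 9.05 (median 8.85). The recovery air arrays read 11.31, 10.77, 10.29, 10.17 and 10.28, and the ozone arrays 11.40, 11.61, 11.67, 11.72 and 11.84. Every ozone array lay below the air arrays on day 1 and above them at 18 h. The effects were -1.56 ± 0.30 and 1.08 ± 0.33 (18 h adjusted p 0.124), and the interaction 2.64 ± 0.44 (adjusted p 0.000137). Its 18 h effect passed when recovery air replicate 1 was left out, at 1.27 (adjusted p 0.0405).

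Hsd17b2, which inactivates oestradiol and testosterone, had the deepest fall on day 1 of the genes named here. It ran from 11.96 to 12.39 (median 12.22) after air and from 9.20 to 9.93 (median 9.51) after ozone. At 18 h the air arrays read 10.32, 10.55, 10.15, 11.54 and 12.15 and the ozone arrays 10.29, 10.79, 10.21, 10.06 and 9.99. Recovery air replicates 1, 2 and 3 lay with the ozone arrays, and replicates 4 and 5 lay higher. The ozone effect was -2.66 ± 0.33 on day 1 and -0.67 ± 0.37 at 18 h, and the interaction 1.99 ± 0.50 (adjusted p 0.00545). Without recovery air replicate 1 the interaction was 1.83, and without the 4 arrays closer to another group it was 1.88. The mean air level was 12.19 ± 0.15 (SD, n = 6) on day 1 and 10.94 ± 0.87 (SD, n = 5) at 18 h, and the mean ozone level 9.53 ± 0.24 (SD, n = 6) and 10.27 ± 0.31 (SD, n = 5). The change with time was -1.25 ± 0.35 in air livers (adjusted p 0.0653) and 0.74 ± 0.35 in ozone livers (adjusted p 0.129), neither past the threshold, so the interaction holds a lower air level at 18 h as well as a higher ozone level.

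The remaining large interactions above 0 were falls on day 1 with no resolved effect at 18 h when all arrays were kept. Nrep had -1.87 and 0.46, Rgs3, a regulator of G-protein signalling, -1.17 and 0.87 by its brightest probe set, and Fabp7, a fatty acid binding protein, -1.62 and 0.18. Chka, the choline kinase of phosphatidylcholine synthesis, had -0.83 ± 0.20 and 0.89 ± 0.22 (18 h adjusted p 0.054). St3gal6, a sialyltransferase, had -1.48 and 0.22, Ppp2r2b, a phosphatase subunit, -1.75 and -0.07, and Stac3 -1.20 and 0.48. Nr0b2, the repressor of bile acid synthesis called SHP, had -1.39 and 0.26, and Id4, an inhibitor of helix-loop-helix transcription factors, -1.05 and 0.53. Adjusted p of their interactions ran from 1.35e-05 (Id4) to 0.00996 (Stac3). Leaving out recovery air replicate 1 brought the 18 h effects of Chka (1.11, adjusted p 0.00251) and Id4 (0.61, adjusted p 0.0371) past the threshold. Leaving out replicate 2 instead, neither passed (adjusted p 0.131 and 0.276). Probe sets of 1 gene did not always give the same value: the other Rgs3 probe set had an interaction of -0.07 (adjusted p 0.705). Of 45 further probe sets of 31 named genes, 28 passed with the same sign as the brightest, 10 had that sign without passing, and 7, none past the threshold, had the opposite sign.

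**Figure D3:**
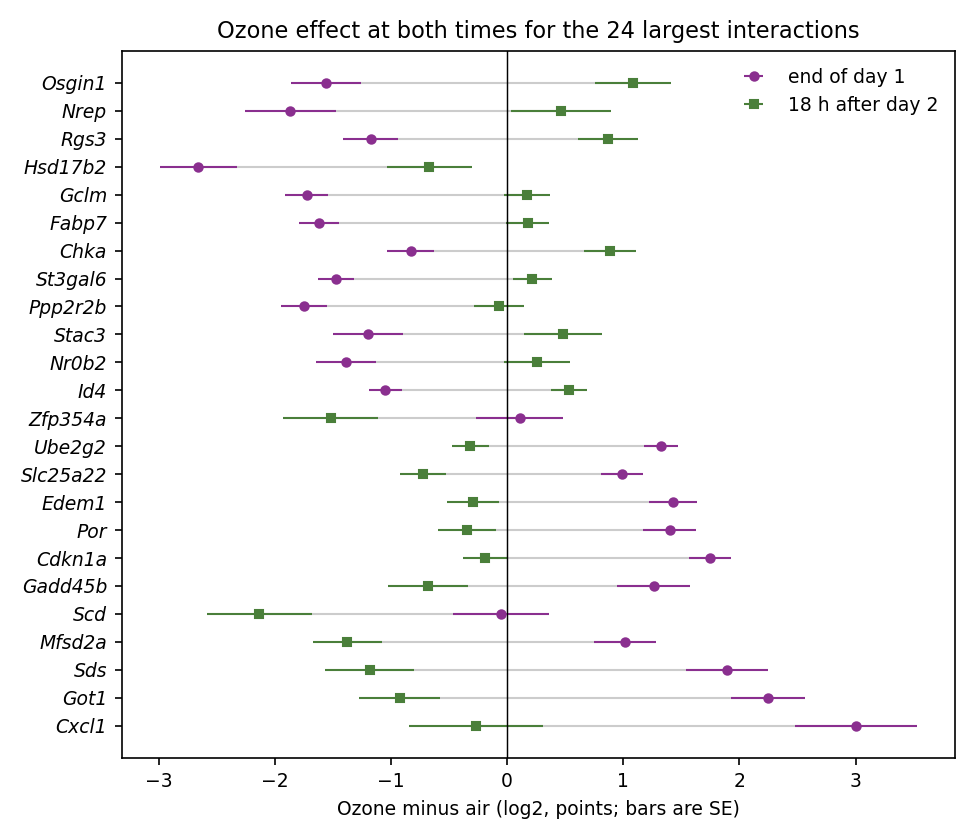
Ozone minus air (log2, with SE) at the end of day 1 (circles) and 18 h after day 2 (squares) for the 12 largest interactions above 0 and the 12 largest below 0. From Cxcl1 (3.00 on day 1, -0.27 at 18 h) to Osgin1 (-1.56 and 1.08), squares lie nearer to 0 than circles for 20 of the 24 genes; Scd, Zfp354a, Mfsd2a and Chka have their larger effect at 18 h.

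The 30 probe sets past the threshold at both times with opposite signs are the reversals proper. Of these, 22 were lower than air on day 1 and higher at 18 h, and 8 the other way. The largest was Mfsd2a, a carrier of lysophosphatidylcholine. It ran from 9.11 to 10.38 (median 9.97) after air and from 10.53 to 11.21 (median 10.89) after ozone on day 1. The recovery air arrays read 9.31, 10.90, 10.24, 10.07 and 9.71 and the recovery ozone arrays 8.41, 9.21, 8.64, 8.61 and 8.49. Ozone arrays lay above all air arrays on day 1 and below all of them at 18 h, with effects of 1.02 ± 0.27 (adjusted p 0.00507) and -1.38 ± 0.29 (adjusted p 0.0222). The interaction was -2.39 ± 0.40 (adjusted p 0.000125), and -2.94 without the 4 arrays that lay closer to another group. The latter rests on recovery air replicates 2 and 4, and replicate 2, at 10.90, was the highest recovery air array. Without recovery air replicate 2 the 18 h effect was -1.16 and did not pass (adjusted p 0.0804).

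Lgals9, galectin-9, a sugar-binding immune regulator, did the same. It ran from 9.04 to 9.50 (median 9.28) after air and from 9.68 to 10.10 (median 9.87) after ozone on day 1. After recovery the air arrays read 8.69, 9.05, 9.34, 9.51 and 9.70, and the ozone arrays 8.55, 8.46, 8.36, 8.27 and 8.01. The groups overlapped at neither time, the nearest being recovery air replicate 1 at 8.69. Its effects were 0.61 ± 0.13 (adjusted p 0.00082) and -0.93 ± 0.14 (adjusted p 0.00466), and -1.07 at 18 h without that array. Fmo1, a flavin mono-oxygenase of drug metabolism, had 0.36 and -0.69. Klf9, a transcription factor induced by glucocorticoids, had 0.36 and -0.51, with its other probe set at 0.35 and -0.46. Eprs1, a tRNA synthetase, had 0.29 and -0.38.

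In the opposite direction Tmcc3, an endoplasmic reticulum membrane protein, ran from 8.42 to 8.64 (median 8.55) after air and from 7.79 to 8.30 (median 7.97) after ozone on day 1. At 18 h the air arrays read 9.19, 8.59, 8.63, 8.43 and 8.75 and the ozone arrays 9.24, 9.29, 9.45, 9.66 and 9.33. The highest air array, recovery replicate 1, was just under the lowest ozone array. The effects were -0.55 ± 0.11 (adjusted p 0.000512) and 0.68 ± 0.12 (adjusted p 0.00841), and 0.80 at 18 h without that air array. Prelid2 had -0.68 and 0.53, Lpar6, a receptor for lysophosphatidic acid, -0.33 and 0.69, Sox4, a transcription factor, -0.47 and 0.42, and Usp3, a deubiquitinase, -0.46 and 0.42. At the end of day 2 the effects of these 5 genes lay between -0.08 and 0.21, between the day 1 and 18 h values. Another Sox4 probe set had an interaction of 0.26 (adjusted p 0.00075), and its further ones, at 0.07, 0.07 and -0.02, did not pass.

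**Figure D4:**
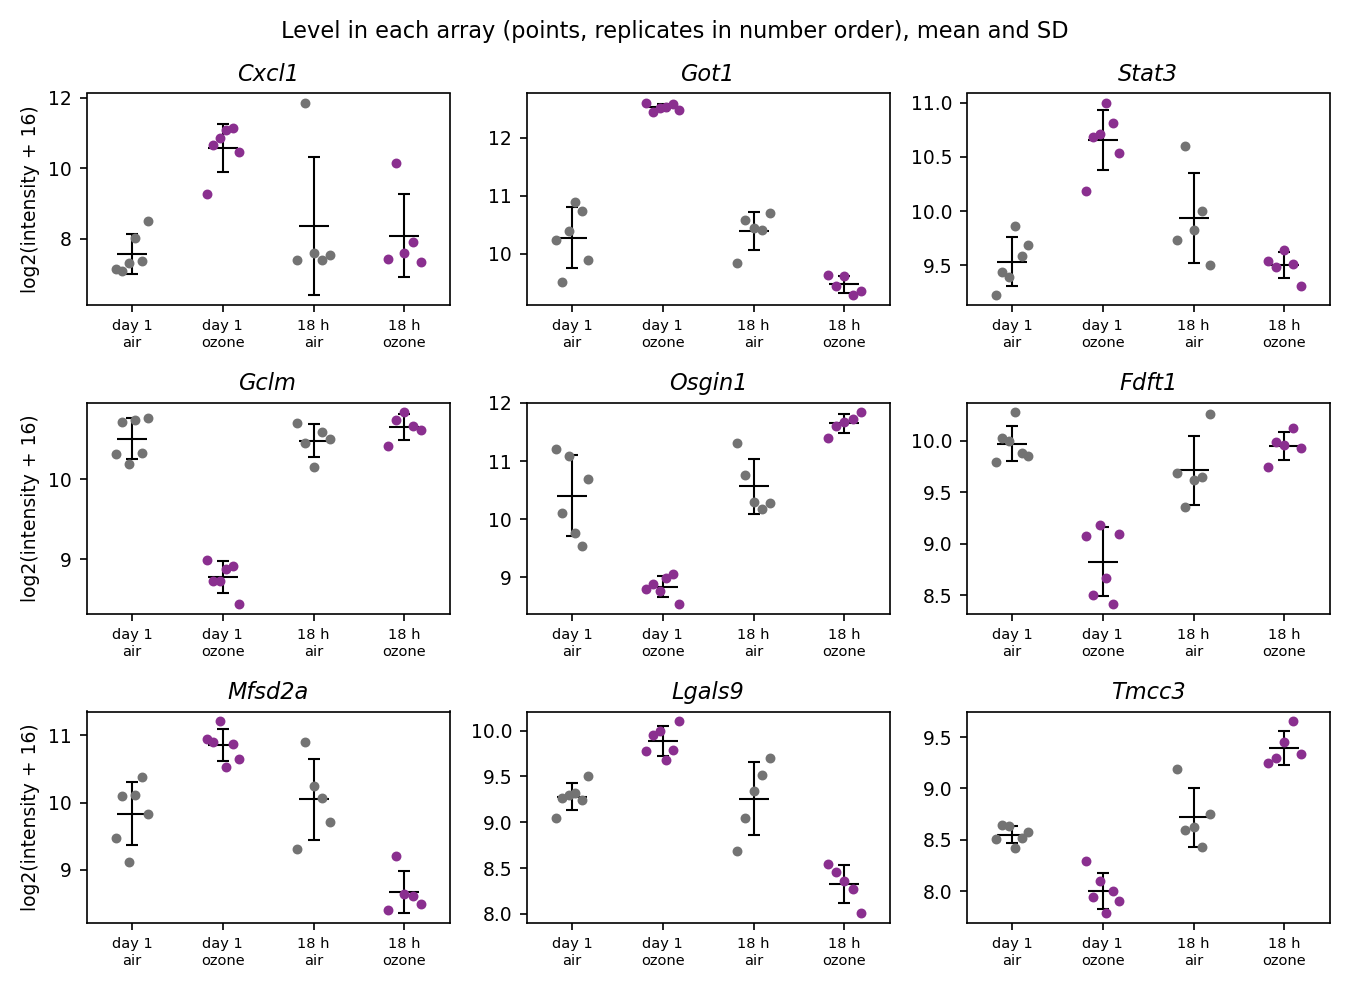
Level of 9 genes in each array (points, log2(intensity + 16)), with the mean and SD of each group: day 1 air and ozone (6 arrays each) and 18 h air and ozone (5 each). Cxcl1, Got1 and Stat3 are high only in day 1 ozone apart from recovery air replicate 2 of Cxcl1 and Stat3 and recovery ozone replicate 2 of Cxcl1; Gclm, Osgin1 and Fdft1 are low in day 1 ozone; Mfsd2a, Lgals9 and Tmcc3 change sides between day 1 and 18 h.

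Gene lists were read by the brightest probe set of each gene, for which 2198 of 13437 genes (16.4%) passed, 1330 above 0 (9.9%) and 868 below 0 (6.46%), with a median interaction of 0.00. By the same count 24.5% of genes passed on day 1, 11% higher and 13.5% lower, and 0.714% at 18 h, 0.506% higher and 0.208% lower. Cholesterol synthesis and uptake had the highest share of members past the threshold. Of 20 members on the array, 11 had an interaction above 0 and 1 below. The list's median ozone effect was -0.29 on day 1, -0.22 on day 2 and 0.20 at 18 h, against 0.01, 0.00 and 0.02 over all genes. Fdft1, squalene synthase, ran from 9.79 to 10.28 (median 9.94) after air and from 8.41 to 9.18 (median 8.87) after ozone on day 1. At 18 h its air arrays read 9.68, 9.35, 9.62, 9.65 and 10.26 and its ozone arrays 9.74, 9.99, 9.95, 10.12 and 9.93. The groups were apart on day 1 and overlapped at 18 h, and the interaction was 1.38 ± 0.25 (adjusted p 0.000254).

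Among the others of that list, Cyp51, the lanosterol demethylase, had -0.49 on day 1 and 0.49 at 18 h, and Srebf2, the transcription factor that drives the pathway, -0.33 and 0.14. The other Srebf2 probe set had an interaction of -0.06 (adjusted p 0.599). Ebp, a sterol isomerase, had -0.17 on day 1 (adjusted p 0.0664) and 0.42 at 18 h (adjusted p 0.00466), and was the only member past the threshold at 18 h. The exception below 0 was Hsd17b7, a reductase of the late steps, with 0.52 and -0.00. Between 10 and 15 members were above 0 in the 35 alternative analyses.

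Amino acid catabolism and the urea cycle moved the other way, with 15 of 33 members below 0 and 3 above. The list's median effect was 0.27 on day 1, 0.10 on day 2 and -0.07 at 18 h. Beside Got1 and Sds, Slc25a15, the ornithine carrier of the urea cycle, had 1.31 ± 0.18 on day 1 and -0.31 ± 0.19 at 18 h. Asl, argininosuccinate lyase, had 1.13 ± 0.14 and -0.12 ± 0.16. The urea cycle was not uniform: Asl, Ass1, Arg1, Nags and Slc25a15 were below 0, Otc and Slc25a13 above 0 (0.26 and 0.25), and Cps1 did not pass (-0.15, adjusted p 0.114). Kmo, of the kynurenine pathway, was the largest of the 3 above 0, with -0.57 on day 1 and 0.40 at 18 h. With all arrays kept, no member passed the 18 h test by itself. Kmo passed it without recovery air replicate 1, at 0.50 (adjusted p 0.00239).

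**Figure D5:**
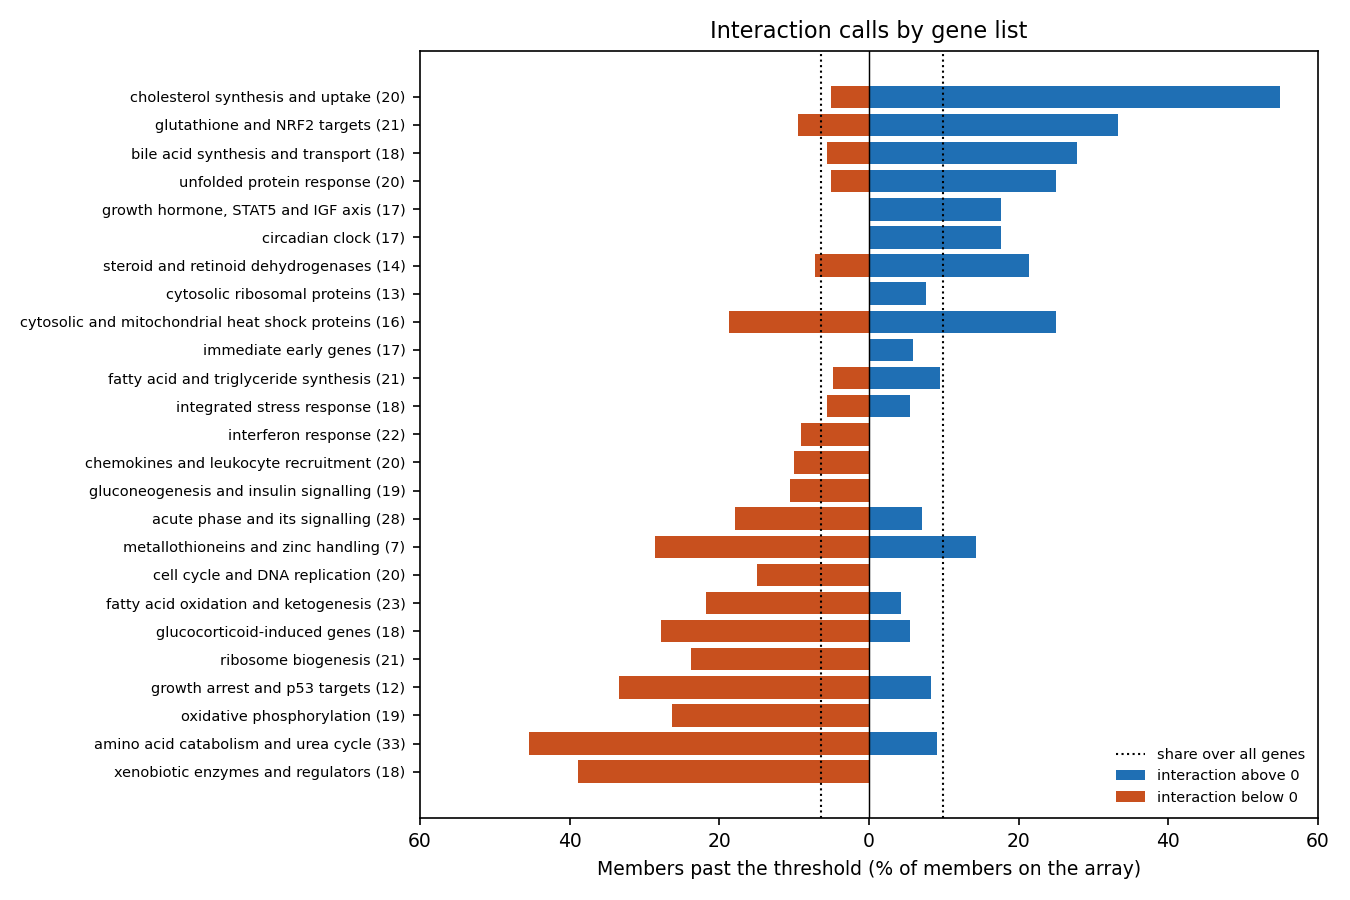
Share of each list's members on the array (number in brackets) with an interaction past the threshold, above 0 (blue, to the right) or below 0 (orange, to the left), in percent. Dotted lines mark the shares over all 13437 genes, 9.9% and 6.46%. Cholesterol synthesis has 11 of 20 above 0, amino acid catabolism 15 of 33 and xenobiotic enzymes 7 of 18 below 0.

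Glutathione and NRF2 targets had 7 of 21 members above 0 and 2 below. NRF2, encoded by Nfe2l2, is the transcription factor of the antioxidant response, and glutamate-cysteine ligase makes the precursor of glutathione. Gclm, that enzyme's modifier subunit, ran from 10.19 to 10.77 (median 10.51) after air and from 8.44 to 8.98 (median 8.80) after ozone on day 1. At 18 h its air arrays read 10.69, 10.45, 10.15, 10.59 and 10.50 and its ozone arrays 10.41, 10.73, 10.83, 10.66 and 10.61. The day 1 groups were 1.73 ± 0.18 apart with ozone lower, and the 18 h groups overlapped. The interaction was 1.90 ± 0.27 (adjusted p 2.5e-05). Gclc, the catalytic subunit, had -0.93 and 0.18, and Nfe2l2 -0.53 and 0.52 (18 h adjusted p 0.0644). Nfe2l2 passed at 18 h without recovery air replicate 1, at 0.59 (adjusted p 0.0191). The 2 members below 0 were Hmox1, haem oxygenase, with 0.44 on day 1 and -0.39 at 18 h, and Srxn1, sulfiredoxin, with 0.30 and -0.01. The 18 h value of Hmox1 turned on recovery air replicate 2, which read 9.99 against 8.19 to 8.45 in the other 4 air arrays. Without it the 18 h effect was -0.06 and the interaction fell in size from -0.83 to -0.50 (adjusted p 0.0267). Nqo1, a standard NRF2 target, did not pass (0.16 ± 0.18, adjusted p 0.729).

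The sequence before the start of Gclm is shown because it holds an exact match to the NRF2 element searched, TGACNNNGC. RefSeq places this window of the GRCr8 build at chr2:213031885-213032134 on the plus strand. The match, in capitals, begins at position -172 from the gene's start and reads TGACNNNGC on the opposite strand.
Gclm: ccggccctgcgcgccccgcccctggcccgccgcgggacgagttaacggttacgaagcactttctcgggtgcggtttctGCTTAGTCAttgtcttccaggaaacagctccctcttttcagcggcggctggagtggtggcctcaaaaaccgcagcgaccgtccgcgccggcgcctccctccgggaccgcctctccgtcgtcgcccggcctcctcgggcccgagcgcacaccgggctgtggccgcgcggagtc
Such a match lies in 14.4% of 11057 gene windows of 300 bases (250 before and 50 after the start, both strands). Of 18 list members with a window, 3 have it (Gclm, Nfe2l2 and Gstp1), a share near that of all windows. All 3 are among the 8 of those 18 whose interaction passed. Over all genes with a window the share was 15.3% for interactions above 0, 17.3% below 0 and 14.1% not past the threshold. Nothing is read from the count of 3. A match is a string of letters and shows no binding.

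Bile acid genes had 5 of 18 members above 0 and 1 below. Baat, which conjugates bile acids, had -0.85 on day 1 and 0.08 at 18 h, and Abcc2, a canalicular exporter, -0.87 and 0.35. Slco1a1, an uptake carrier, had -0.36 and 0.02, and Nr0b2 is given above. The member below 0 was Cyp8b1, the sterol 12-alpha-hydroxylase, with 0.74 and 0.01. Cyp7a1, the rate-limiting enzyme of bile acid synthesis, did not pass (-0.16 ± 0.59). Without the 4 arrays closer to another group the list had 3 above 0 and 2 below.

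Chaperone genes were split. In the unfolded protein response list 5 of 20 were above 0 and 1, Edem1, below. Xbp1, a transcription factor of that response, had -0.67 on day 1 and 0.11 at 18 h, and Pdia4, a disulfide isomerase, -0.30 and 0.26. Dnajc3, a co-chaperone, passed at both times with opposite signs, at -0.25 and 0.30. Among 16 heat shock proteins 4 were above 0, with Hspa8 (-0.64 and 0.05), Dnaja1 (-0.77 and -0.08; its other probe set had an interaction of -0.19, adjusted p 0.362) and Dnajb1 (-0.46 and 0.04) of the cytosol, and 3 below, such as mitochondrial Hspd1 (0.23 and -0.06).

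Fatty acid oxidation and ketogenesis had 5 of 23 members below 0 and 1 above. Cpt1a, which admits fatty acids to mitochondria, had 0.93 on day 1 and -0.37 at 18 h. Ppargc1a, a coactivator of fasting genes, had 0.86 and -0.16, Slc25a20, the carnitine carrier, 0.53 and -0.15, and Acot1, a thioesterase, 0.30 and -0.03. In fatty acid and triglyceride synthesis 2 of 21 were above 0, Srebf1 (-0.60 and 0.61) and Fads1 (-0.79 and 0.29), and Scd was below. Gluconeogenesis and insulin signalling had 2 of 19 past the threshold (10.5%, against 16.4% of all genes). Both were below 0: Slc37a4, the glucose 6-phosphate carrier, and Mdh1. Mdh1, cytosolic malate dehydrogenase, was -0.61 by its brightest probe set and -2.04 by its other.

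Glucocorticoid-induced genes had 5 of 18 members below 0 and 1 above. Fkbp5, a co-chaperone of the glucocorticoid receptor, had 1.17 ± 0.17 on day 1 and -0.11 ± 0.18 at 18 h, and Tdo2, tryptophan dioxygenase, 0.49 and -0.05. Mt2A, a metallothionein, had 0.69 and -0.85 (18 h adjusted p 0.0826). Its 18 h effect was -1.19 without recovery air replicate 1 (adjusted p 0.0002) and -0.65 without replicate 2 (adjusted p 0.275). The member above 0 was Nr3c1, the receptor itself, with -0.38 and 0.17. Per1, also induced by glucocorticoids, did not pass (-0.19 ± 0.10, adjusted p 0.278). The other metallothionein and zinc genes gave 1 above 0 and, with Mt2A, 2 below out of 7, the other being Slc39a14, a zinc importer (0.60 and 0.10).

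In the acute phase list 5 of 28 were below 0 and 2 above. Stat3, which carries the interleukin-6 signal, ran from 9.23 to 9.86 (median 9.51) after air and from 10.19 to 11.00 (median 10.70) after ozone on day 1. At 18 h its air arrays read 9.73, 10.60, 9.83, 10.01 and 9.51 and its ozone arrays 9.54, 9.49, 9.65, 9.52 and 9.31. Recovery air replicate 2, which was also high for Cxcl1, was the highest air array. The interaction was -1.55 ± 0.19 (adjusted p 7.27e-06). Serpina3n, a secreted inhibitor, had 0.34 and -0.10, and Apcs, serum amyloid P, had 0.04 on day 1 and 0.25 at 18 h (adjusted p 0.00466). Without the 4 arrays closer to another group the list had 7 below 0 and 0 above. Those counts rest on recovery air replicates 2 and 4 only.

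Of 20 chemokine and leukocyte recruitment genes, 2 passed (10%, against 16.4% of all genes). Both were below 0: Cxcl1 and Icam1, an adhesion molecule (0.39 on day 1 and -0.21 at 18 h). Recovery air replicate 2 read 9.62 for Icam1, against 8.39 to 8.45 in the other recovery air arrays. Without it the interaction went from -0.59 to -0.35 (adjusted p 0.0069) and the 18 h effect to 0.03. Icam1 lost the call in 3 of 35 alternatives. Ccl2, a monocyte attractant, did not pass (0.23 ± 0.10, adjusted p 0.143). The 250 bases before the start of Cxcl1 (GRCr8, chr14:17479322-17479571, minus strand, RefSeq) are shown for the exact NF-kappa B match GGGANTTTC in capitals, which begins at position -84.
Cxcl1: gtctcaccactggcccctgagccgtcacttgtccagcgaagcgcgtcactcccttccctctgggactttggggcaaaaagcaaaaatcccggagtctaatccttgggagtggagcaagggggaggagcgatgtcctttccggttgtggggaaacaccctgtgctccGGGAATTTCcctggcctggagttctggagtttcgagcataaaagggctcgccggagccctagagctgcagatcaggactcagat
That string lies in 1.18% of all 11057 windows and in 3 of the 13 windows of this list. Cxcl1 is the only one of those 3 whose interaction passed.

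Xenobiotic enzymes and regulators had 7 of 18 members below 0 and 0 above. Beside Por and Fmo1, Nr1i2, the pregnane X receptor, had 0.70 on day 1 and -0.23 at 18 h, and Sult1a1, a sulfotransferase, 0.27 and -0.18. Growth arrest and p53 targets had 4 of 12 below 0, among them Ccng1, cyclin G1 (0.65 and -0.11), and Gadd45a (0.72 and -0.44), which lost the call in 3 of 35 alternatives; 1 member was above 0. Gadd45a was also high in recovery air replicate 2, at 10.37, and without it the interaction went from -1.16 to -0.76 and the 18 h effect to -0.04. Ribosome biogenesis had 5 of 21 below 0 with small effects, as for Gnl3 (0.43 and 0.00), Nolc1 (0.28 and 0.04), Bop1 (0.28 and 0.00) and Rrp12 (0.12 and -0.02). Oxidative phosphorylation had 5 of 19 below 0, such as Ndufs3 (0.26 and -0.12), Cyc1 (0.21 and -0.10), Ndufs1 (0.24 and -0.21) and Sdhc (0.18 and -0.09). Cell cycle genes had 3 of 20 below 0, led by Rrm2, of ribonucleotide reductase (0.42 and -0.07), and Ccne1, cyclin E1 (0.16 and -0.03).

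The growth hormone, STAT5 and IGF list had 3 of 17 above 0. Socs2, a feedback inhibitor of growth hormone signalling, had -0.95 on day 1 and 0.21 at 18 h, and Igfals, which stabilises circulating IGF, -0.67 and 0.42. Steroid and retinoid dehydrogenases had 3 of 14 above 0, with Dhrs3 (-0.75 and -0.02) and Hsd17b2, and 1 below, Rdh16 (0.78 and -0.43). Both cold-inducible RNA-binding proteins rose on day 1. Cirbp had 0.85 on day 1 and 0.14 at 18 h (interaction -0.71, adjusted p 0.0132; not past the threshold without recovery air replicates 1 and 5, at -0.64). Rbm3 had 1.76 and 0.67, and its interaction of -1.09 ± 0.38 lay at the threshold on the far side (adjusted p 0.0504). The growth hormone and clock lists (17.6% of members past the threshold each), cell cycle genes (15%) and fatty acid synthesis (14.3%) lay near the 16.4% of all genes, and nothing is read from their counts. Further lists, cell markers aside, lay below that share. They include the integrated stress response (Ddit3 above 0 and Slc3a2 below, of 18) and immediate early genes (Jund above 0, of 17). Cytosolic ribosomal proteins (Rpl7 above 0, of 13), chemokines (10%), gluconeogenesis and insulin signalling (10.5%) and the interferon response (9.09%) were below it too. Nothing is read from these interaction counts. Ddit3, Slc3a2 and Rpl7 lost the call in 1, 1 and 7 of 35 alternatives.

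Of 17 clock genes 3 were above 0 (Per2, Cry1 and Nr1d2) and 0 below. Per2, a repressor of the clock, had -0.36 on day 1 (adjusted p 0.0525) and 0.52 at 18 h (adjusted p 0.0963), an interaction of 0.89 ± 0.20 (adjusted p 0.00242). The other Per2 probe set had an interaction of 0.06 (adjusted p 0.622). By the brightest, Per2 passed at 18 h without recovery air replicate 1, at 0.65 (adjusted p 0.0115). Cry1, its partner, had 0.09 and 0.58 (18 h adjusted p 0.00466). Bmal1, the activator, was 0.51 higher on day 1 and its interaction did not pass (-0.30 ± 0.12, adjusted p 0.0796). Per2 is shown because it is the only 1 of 15 list members with a window to hold a D-box, TTATGNAA, which 1.98% of all windows have. The 250 bases before its start (GRCr8, chr9:99496994-99497243, minus strand, RefSeq) carry the match in capitals at position -192.
Per2: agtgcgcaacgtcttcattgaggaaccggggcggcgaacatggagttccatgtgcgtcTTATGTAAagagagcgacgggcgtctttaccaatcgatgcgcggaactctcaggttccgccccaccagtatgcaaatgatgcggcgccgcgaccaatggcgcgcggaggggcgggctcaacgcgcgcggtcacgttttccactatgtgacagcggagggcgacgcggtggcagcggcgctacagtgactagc
For cholesterol genes the sterol regulatory element TCACNCCAC was in 0 of 16 windows (1.11% of all), and for glucocorticoid-induced genes the short site TGTTCT in 0 of 17 (13.2% of all). This says only that those letters are not in these windows.

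Interferon-response genes were lower after ozone at both times. On day 1, 12 of 22 members were lower after ozone, and at 18 h 8 were lower. The median effect was -0.31 on day 1, -0.34 on day 2 and -0.45 at 18 h. The interaction passed for 2 members (9.09%, against 16.4% of all genes), Ifi27 (-0.08 and -0.67) and Stat2 (0.14 and -0.19), both below 0. Across the 35 alternatives the number lower at 18 h ran from 2 to 13, and it was 3 without the 4 arrays closer to another group. The mean over 10 Kupffer cell markers was lower in the same recovery ozone arrays (8.63 to 9.04, against 9.06 to 9.23 after air), and its part in these values was not tested.

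Outside the interaction calls, 11 probe sets passed at both times with the same sign, and 4 of these are interferon genes of that list (Irf7, Irf9, Oasl and Ifit3), which were named after their values were seen. Irf7, a master regulator of the response, ran from 8.79 to 9.45 (median 9.12) after air and from 8.30 to 9.02 (median 8.54) after ozone on day 1. At 18 h its air arrays read 8.61, 8.71, 9.04, 8.97 and 9.71 and its ozone arrays 8.37, 8.28, 8.34, 8.29 and 8.13. All recovery ozone arrays lay below all recovery air arrays, and the day 1 groups overlapped. Its effects were -0.51 ± 0.15 and -0.73 ± 0.16, with an interaction of -0.21 ± 0.22 (adjusted p 0.675). Enpp2, autotaxin, which makes lysophosphatidic acid, also stayed lower (-0.66 and -0.58). Hjv, haemojuvelin, an iron regulator, stayed higher (0.37 and 0.61).

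Among the 58 interactions with an effect at 18 h alone, 44 were above 0 and 14 below. Akr1b7, an aldo-keto reductase, had the largest above 0, and was named after its values were seen. On day 1 it ran from 7.20 to 7.75 (median 7.48) after air and from 7.10 to 8.15 (median 7.42) after ozone. After recovery the air arrays read 7.13, 7.50, 7.55, 7.34 and 7.77 and the first 4 ozone arrays 8.60, 8.29, 8.98 and 9.01, while the fifth was the lowest of the group (mean 8.58 ± 0.44 SD, n = 5). The groups overlapped on day 1 but not at 18 h, where ozone was 1.12 ± 0.20 higher (adjusted p 0.0054). The day 2 effect was 0.04. Of all 120 probe sets called at 18 h, 72 (60%) had the opposite sign to day 1, against 47.4% of all 19062. These were 57 of the 78 higher at 18 h but 15 of the 42 lower. The same sign at the end of day 2 was seen for 100 of the 120. No share over all probe sets was taken for that, and day 2 ozone replicate 5 lay with recovery ozone.

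Few interactions passed among markers of cell types. The interaction passed for 0 of 11 hepatocyte, 0 of 8 neutrophil and monocyte, 0 of 11 lymphocyte, 0 of 3 erythroid and 0 of 10 pancreas and adipose markers. The mean level of neutrophil and monocyte markers lay between 7.13 and 7.53 in all 4 groups, including the arrays with high Cxcl1. Its highest value, 7.53, was in recovery air (median 7.28), and the highest in day 1 air was 7.38. On day 1, 2 of these 8 markers were lower after ozone, against 13.5% of all genes. Of 10 Kupffer cell markers, 1 passed, Lyz2, which was above 0 (-0.63 on day 1 and 0.01 at 18 h) against a list median of -0.17. The median Kupffer effect was -0.16 on day 1 and -0.27 at 18 h, where 9 of the 10 were below air and 0 passed. Their mean level ran from 9.13 to 9.40 in day 1 air, 8.85 to 9.47 in day 1 ozone, 9.06 to 9.23 in recovery air and 8.63 to 9.04 in recovery ozone, so the recovery groups did not overlap. Epcam alone of 7 cholangiocyte markers passed (-0.31 and 0.22). Pdgfra alone of 12 stellate markers passed below 0 (0.19 and -0.16), and lost the call in 3 of 35 alternatives.

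Among endothelial markers 4 of 9 were above 0. Stab2, a scavenger receptor of the liver sinusoid, had -0.20 on day 1 (adjusted p 0.0203) and 0.28 at 18 h (adjusted p 0.0439). Stab1 had -0.13 and 0.12, and Emcn and Tek also passed. Pecam1, Vwf and Lyve1, also in this list, did not pass (0.00, 0.07 and -0.19). The mean over the 9 ran from 8.32 to 8.53 in day 1 air, 8.19 to 8.43 in day 1 ozone, 8.38 to 8.55 in recovery air and 8.40 to 8.63 in recovery ozone, so all groups overlapped. In whole liver, fewer cells of a type and less RNA per cell cannot be told apart, and the part of cell composition in the other results was not tested.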

How the data were processed

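The series holds 32 Affymetrix arrays of rat liver RNA (biotin label, 1 colour), 22 of them in the 4 groups of the interaction. The deposited values are linear probe-set intensities (30.5 to 15558); the submitters' processing notes name PLIER and Affymetrix Expression Console as the authors' tools. Their versions, background correction and scaling were not given in the sources used here. Background signal remains in the values, so fold changes of dim genes are understated. No further scaling was applied.

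Groups and replicate numbers came from sample titles. Of 31139 probe sets, 97 controls, 11407 without a gene and 573 with several genes were left out, leaving 19062 for 13437 genes; 18983 were found in RefSeq by Entrez identifier. Values were analysed as log2(intensity + 16). In R 4.3.3, limma 3.58.1 (lmFit, eBayes with an intensity trend) fitted a mean for each of 6 groups over all 32 arrays, with no block. Tests are two-sided, adjusted by Benjamini-Hochberg over the 19062 probe sets, at 0.05; errors are SE from that fit unless given as SD. The procedure was tested on simulated data.

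A gene stands by its brightest probe set, and 10 genes had probe sets past the threshold in opposite directions. Named were the 12 largest interactions on each side, the 5 largest sign changes on each side, and the 2 (or, from 5 passing, 4) members of each list with the smallest p; others were named after their values were seen. The members and lists were chosen with earlier results of these data known. Some genes stand in several lists. Lists are described by counts and medians, with no test. Promoter windows and coordinates are RefSeq's, build GRCr8; 11057 genes had one. Python 3.11.15, pandas 2.3.3 and matplotlib 3.10.9 made tables and figures.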

Additional observations from a re-analysis of the deposited data

Results flagged for a closer look

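The ozone effect differed between day 1 and 18 h by the interaction test for 2776 probe sets. Among the 33 genes with the largest interactions or sign changes, 11 of 132 groups of arrays held an array far from the others of its group, where chance alone gives about 1 in 20; over all 100 named genes it was 23 of 400. Cxcl1 had such an array in 3 groups: day 1 ozone replicate 1 was low at 9.27, recovery air replicate 2 high at 11.84 and recovery ozone replicate 2 high at 10.15. Mfsd2a was also high in recovery ozone replicate 2, at 9.21. In day 1 ozone, Fabp7 was low in replicate 6 (9.23), Nr0b2 low in replicate 5 (8.18), Cdkn1a low in replicate 4 (8.60) and Klf9 high in replicate 3 (11.94). Chka was high in recovery air replicate 1 (9.65), Id4 low in recovery air replicate 2 (8.97) and Eprs1 high in day 1 air replicate 4 (11.08). The causes were not tested.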

How the results depend on the processing

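No interaction changed sign among the 100 named genes in the alternative analyses that gave a value. Of them 99 had a value in all 35, and 86 of these kept the call in all of them. Acot1 had none without dim probe sets or with 1 probe set per gene. Some 18 h effects did change sign without recovery air replicate 2, as for Cxcl1 (to 0.60) and Nr0b2 (to -0.05). The interaction count lay between 2375 and 2855 without any single array, and was 3769 with array weights, 3111 with quantile normalization and 1970 without the 4 arrays closer to another group (an alternative chosen after seeing the data, as are the other joint omissions). The day 1 count lay between 3849 and 4417 without any single array. The 18 h count ran from 24 to 409 without single arrays, and was 204 with 4 groups in the fit, 610 with array weights and 335 without recovery air replicates 1 and 5. The count past the threshold at both times with opposite signs ran from 5 to 150, and was 46 without dim probe sets, 75 with 4 groups, 207 with array weights and 144 without recovery air replicates 1 and 5. The share of day 1 calls with the opposite sign at 18 h ran from 55.2% to 60.6% without single arrays, and was 62.4% without recovery air replicates 1 and 5 and 60.4% without the 4 arrays. Same-numbered arrays of different groups had a median correlation of -0.05 (from -0.58 to 0.44), and arrays of other numbers 0.01. Those pairs pool all harvests, so pairing of air and ozone arrays within 1 harvest was not tested. With the replicate number as a block the interaction count was 2515. Median shifts of the scalings were under 0.01 in size. The share of interactions above 0 was still 59.1% as reported, 55.9% with equal array medians and 52.1% under quantile normalization. The causes of these movements were not tested.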
